A study of Mus musculus with 147 samples.

Results

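Ccna1-high cells of the mouse testis were chosen from the wild-type cells of postnatal day (PND) 35 and of adult mice by the levels of 3 genes. A cell was a member with at least 300 CPM of Ccna1 and under 100 CPM of Acrv1, where CPM are the UMIs (unique molecular identifiers, 1 for each captured molecule) of a gene per 1000000 UMIs of the cell. Members numbered 373 of the 1523 PND35 and adult cells with more than 2000 genes and 10000 to 1000000 UMIs, and of 13032 cells of 28 time-points in the count table. They were set against 420 comparison spermatocytes of the same animals, with at least 200 CPM of Piwil1, under 100 CPM of Ccna1 and under 100 CPM of Acrv1. The animals were wild-type offspring of C57BL/6 females and males that carried the Blimp1-mVenus and Stella-ECFP reporters, and adults were 8 to 10 weeks old. No treatment is named for them. Single cells of the dissociated testis were collected by hand, by their look under the microscope, and sequenced with a modified STRT-seq, which counts molecules at the 3′ end. A pool is the cells of 1 time-point and 1 biological replicate, and the number of mice behind a pool was not used here.

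As background, a spermatocyte spends a long pachytene stage with its homologous chromosomes held together by the synaptonemal complex while crossovers mature. It then takes the complex apart in diplotene and divides in quick succession to give haploid round spermatids. Ccna1 encodes the testis form of cyclin A, which binds Cdk2 and Cdk1 and without which male mice stop before the first meiotic division. Piwil1 is the Piwi protein of pachytene piRNAs, Pou5f2 a POU-domain transcription factor of spermatocytes, and Acrv1 a protein of the acrosome, the vesicle over the sperm head.

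Of the 4 pools 3 held nearly all members. There were 123 of 367 cells in PND35 replicate 1 (33.5%, exact 95% interval 28.7 to 38.6%), 115 of 332 in PND35 replicate 2 (34.6%, 29.5 to 40.0%) and 134 of 447 in adult replicate 2 (29.98%, 25.8 to 34.5%). Adult replicate 1 stood apart, with 1 member among 377 cells (0.265%, 0.00672 to 1.47%). It also held only 5 cells with at least 100 CPM of Acrv1, against 70 in PND35 replicate 1, 52 in PND35 replicate 2 and 141 in adult replicate 2. The 153 comparison spermatocytes of adult replicate 1 also carried 645 CPM of 6 summed Leydig cell markers and 453 CPM of 8 Sertoli cell markers, against 11.3 to 12.9 CPM and 39.3 to 57.1 CPM in those of the other pools. It gave no sum of 10 members, so the 3 other pools carry all tests below, and values are given in the order PND35 replicate 1, PND35 replicate 2, adult replicate 2. The 4 libraries of PND35 replicate 1 held 30.3 to 36.2% members, the 4 of PND35 replicate 2 26.4 to 51.0%, and the 5 of adult replicate 2 22.9 to 44.6%. Cell barcodes are reused between libraries, and 87 of the 95 barcodes among members occurred in more than 1 library.

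Members were deep cells. The median member had 502475, 519273 and 461400 UMIs and the median comparison spermatocyte 245702, 327347 and 330767, so that members were higher in each of the 3 pools. An exact permutation of the class within pools gave p = 0.25, which is the smallest p that 3 pools allow, and the same holds for the median genes per cell (11262, 11189 and 11436 against 10076, 9869 and 10700). Since a CPM is a share of a cell's UMIs, a gene with as many UMIs per cell in both classes had a lower CPM in members. Mitochondrially encoded genes took 0.570%, 0.598% and 0.628% of the UMIs of members and 1.12%, 0.974% and 1.04% of those of comparison spermatocytes.

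Markers of somatic cells were low in members. The 8 Sertoli markers summed to 19.5, 32.5 and 25.2 CPM, the 6 Leydig markers to 11.7, 29.96 and 6.25 CPM and the 5 macrophage markers to 38.7, 29.5 and 64.2 CPM, and each marker of the 3 lists had UMIs in members of at least 1 pool. Of 7 tested Sertoli markers 4 were lower in members than in comparison spermatocytes. Of the 8 earlier spermatocyte markers, 6 were lower in members and 0 higher. RNA of late spermatids was in nearly every cell: Prm1, a protamine that packs sperm DNA, had at least 1 UMI in 122 of 123, 115 of 115 and 134 of 134 members, with a median of 38, 79 and 112 UMIs. It stood at 142, 176 and 305 CPM in members and at 275, 249 and 380 CPM in comparison spermatocytes. The median comparison spermatocyte had 33, 56 and 85 UMIs of Prm1, fewer than the median member. How far free RNA of other cells adds to the values below was not tested.

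The genes of the rule are given as a description. Ccna1 summed over members was 400, 393 and 423 CPM, against 60.8, 54.98 and 55.1 CPM in comparison spermatocytes. Piwil1 was 280, 276 and 281 CPM in members and 593, 476 and 560 CPM in the comparison, whose cells were chosen for it. Acrv1 was 38.2, 25.1 and 50.8 CPM in members and 29.8, 25.03 and 44.4 CPM in the comparison. The lowest member had 300.7 CPM of Ccna1 and the highest cell left out 298.9 CPM, with 55 members at 300 to 330 CPM and 37 cells at 270 to 300 CPM, so the limit cuts a continuous range. At the other limit the highest member had 99.1 CPM of Acrv1, and the lowest excluded cell with Ccna1 over its limit 104.2 CPM.

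In GENCODE M21 (GRCm38) Ccna1 lies on the minus strand at chr3:55045469-55055501 and Pou5f2 on the plus strand at chr13:78024902-78026295, both protein-coding. Pou5f2 was 4.28-fold higher in members. The rule did not use it, but it had been named beforehand as a marker of these cells, so its rise is no independent support. It was at 262, 287 and 252 CPM in members and at 60.0, 50.8 and 66.8 CPM in comparison spermatocytes, a log2 fold change of 2.10 (SE 0.09, adjusted p = 2.11e-11, edgeR quasi-likelihood test with Benjamini-Hochberg adjustment, 3 pools a class). The sum over members of each pool thus lay above the sums over comparison cells of every pool, while single cells of the classes overlapped. Single members spread widely, from 23.7 to 539 CPM in PND35 replicate 1, 0 to 528 in PND35 replicate 2 and 12.8 to 438 in adult replicate 2, with medians of 280, 305 and 277 CPM. In 1 library of adult replicate 2 the 19 members had a median of 80.3 CPM, while the medians of the other 4 libraries of that pool ran from 232 to 313 CPM. The plot of both genes by cell shows a dense group high in both and a tail of members with little Pou5f2.

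**Figure D1:**
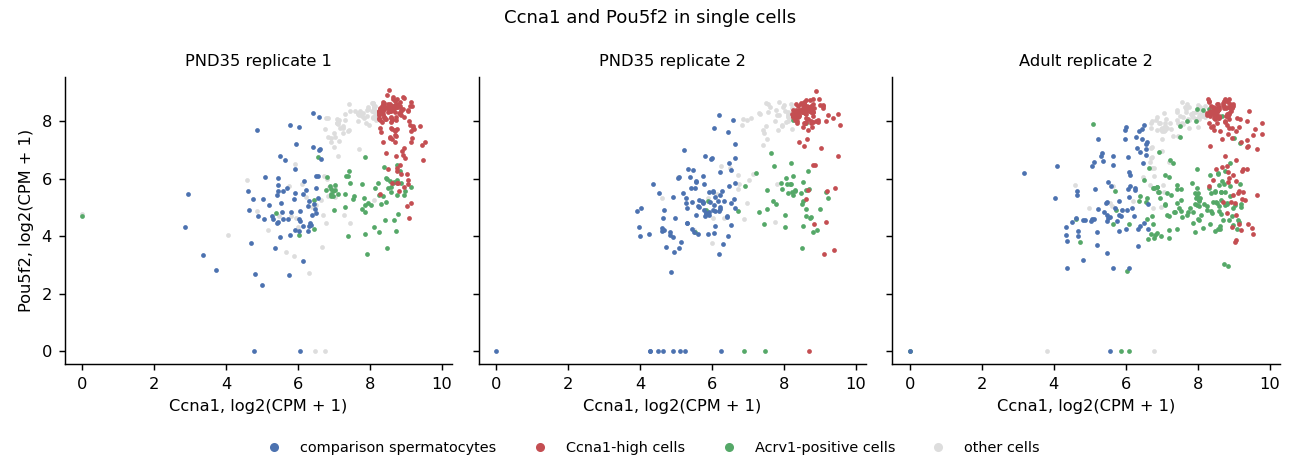
Ccna1 (x axis) against Pou5f2 (y axis) in single cells of 3 pools, both as log2(CPM + 1), with each point 1 cell coloured by class. Most Ccna1-high cells have over 100 CPM of Pou5f2, and the tail below holds 18, 11 and 33 members of the 3 pools.

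The classes were then compared across all genes. Of 18281 genes tested, 10992 differed between members and comparison spermatocytes (60.1%), 5088 of them higher in members (27.8%) and 5904 lower (32.3%), at a false discovery rate of 0.05 and without the 3 genes of the rule. At least 2-fold higher were 3036 (16.6%) and at least 2-fold lower 3379 (18.5%), and the median log2 fold change of all tested genes was -0.07. Because the cells were chosen by genes measured in the same cells, a gene that goes with Ccna1 or Piwil1 over cells had to differ, and the calls describe the classes. The p-values measure the spread between the pools. Fold changes were scaled by TMM, so they differ slightly from ratios of CPM. The gene lists below were chosen with earlier results of these data known. Counts of each list in this comparison are to be read against the 27.8% of all tested genes that were higher and the 32.3% that were lower.

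Among genes of cell division, the kinase genes Plk1 and Aurkb and the cyclin gene Ccnb1 rose at least 2-fold, as did 16.6% of all genes tested. Plk1, a kinase of entry into division, rose 7.85-fold from 31.1, 32.2 and 33.4 CPM to 269, 240 and 298 CPM (log2 fold change 2.97, SE 0.09). Aurkb, the kinase of the chromosomal passenger complex, rose 11.6-fold from 8.61, 10.1 and 6.85 to 95.2, 116 and 99.2 CPM (3.53, SE 0.13). In both genes the sums of the classes lay far apart in every pool.

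Ccnb1, the B cyclin that activates Cdk1, stood at 61.9, 72.0 and 57.5 CPM in comparison spermatocytes and at 257, 225 and 276 CPM in members (1.90, SE 0.11). Cdk1 itself moved less, from 164, 160 and 143 to 244, 236 and 242 CPM (0.55, SE 0.08). The phosphatases Cdc25a (2.38, SE 0.11) and Cdc25c (2.24, SE 0.18), which remove the block on Cdk1, rose as well, and so did the meiotic Aurora kinase Aurkc (1.70) and the passenger protein Incenp (1.67). Of the kinases that place the block on Cdk1, Wee2 (2.16) and Wee1 (0.85) rose too, and Pkmyt1 (-1.80) fell. Ccnb2, the other B cyclin, was abundant in both classes and stood at 397, 391 and 428 against 378, 408 and 373 CPM, with a log2 difference of -0.01 (SE 0.08) that did not pass.

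In the opposite direction, Ccne2, a cyclin of entry into S phase, fell from 66.7, 64.7 and 106 CPM to 6.22, 9.92 and 11.7 CPM (-3.18, SE 0.14) and the Cdk adaptor Cks1b from 55.7, 68.9 and 47.1 to 6.17, 10.3 and 7.24 CPM (-2.95, SE 0.14). Of 25 cyclins and regulators of Cdk1 tested, 11 were higher, 8 lower and 6 not called (median log2 fold change 0.15). The share of lower genes was near the 32.3% of all tested genes. At least 2-fold higher were 4, a share near the 16.6% of all tested genes. Of 37 division kinases and checkpoint genes, 20 were higher, 10 lower and 7 not called (median 0.37). The lower ones include Mad2l1, the spindle checkpoint protein Mad2, at 79.2, 86.2 and 85.2 CPM in comparison spermatocytes and 16.6, 25.5 and 15.7 CPM in members, and Sgo1, which guards cohesin (-2.50), while Nek2 (0.06) did not pass.

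The promoters of Plk1 and Pou5f2 are shown because the results turn on both genes. They are the 250 bases before the RefSeq start (GRCm38.p6), both on the plus strand, at chr7:122159185-122159434 for Plk1 and chr13:78024652-78024901 for Pou5f2. Pou5f2 lies within Fam172a, a gene on the same strand. Capitals mark CCAAT boxes (CCAAT) in the first and the core of the cell cycle genes homology region (TTTGAA, read here from the other strand) in the second.
Plk1: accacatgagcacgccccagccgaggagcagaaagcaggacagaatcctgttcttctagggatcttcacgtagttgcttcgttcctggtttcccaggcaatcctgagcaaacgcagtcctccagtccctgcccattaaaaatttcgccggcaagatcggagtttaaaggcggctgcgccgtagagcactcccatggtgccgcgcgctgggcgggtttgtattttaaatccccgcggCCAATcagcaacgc
Pou5f2: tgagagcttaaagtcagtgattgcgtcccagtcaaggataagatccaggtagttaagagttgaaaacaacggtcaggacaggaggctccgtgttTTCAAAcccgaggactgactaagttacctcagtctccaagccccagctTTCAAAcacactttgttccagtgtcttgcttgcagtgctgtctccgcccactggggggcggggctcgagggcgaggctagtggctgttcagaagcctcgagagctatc
Searched on both strands, CCAAT was in 36.5% of 10674 windows of tested genes, in 34.7% of 1631 genes at least 2-fold higher in members and in 38.2% of 2111 at least 2-fold lower. TTTGAA was in 12.5%, 14.1% and 10.4%. A match of letters is no bound site.

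Most measured genes of synapsis were lower in members. Sycp1, the transverse filament of the synaptonemal complex, fell 4.43-fold, from 726, 637 and 612 CPM to 143, 176 and 154 CPM (-2.15, SE 0.09). Tex12 of the central element fell 13.0-fold, from 289, 291 and 229 to 21.1, 36.6 and 13.3 CPM (-3.70, SE 0.14). In both genes the sums over members of all pools lay below the sums over comparison cells of every pool. Single members reached 486 CPM of Sycp1 in PND35 replicate 2.

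The central element genes Syce2 (-2.37) and 4930447C04Rik (-3.52) fell too, and the axis protein Hormad1 went from 521, 479 and 434 to 201, 234 and 210 CPM (-1.24, SE 0.08). Of 12 synaptonemal complex and axis genes tested, 10 were lower, 0 higher and 2 not called, with a median of -1.46. Syce1, of the central element as well, did not pass, at 521, 555 and 538 CPM in members and 543, 554 and 532 CPM in the comparison.

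Genes of breaks, recombination and crossovers went the same way, with 24 of 31 lower, 3 higher and 4 not called (median -1.29). Ccnb1ip1, the crossover factor HEI10, fell from 108, 119 and 82.8 CPM to 7.54, 14.5 and 4.20 CPM (-3.79), Mcmdc2 by 3.63 and Msh4, which stabilises crossover intermediates, by 3.40 on the log2 scale, and Mnd1, a partner of the strand exchange protein Dmc1, by 2.96. H2afx, whose phosphorylated form marks the sex body, was at 188, 200 and 141 CPM in members and at 452, 403 and 288 CPM in the comparison. Mei1, a gene of break formation, was one of the 3 higher genes (1.33), at 7.17, 6.55 and 7.45 against 3.42, 2.53 and 2.12 CPM.

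Cohesin was mixed, with 5 of 12 subunits and regulators higher, 4 lower and 3 not called (median -0.05). Stag1 fell from 85.0, 70.8 and 81.9 CPM to 23.3, 24.2 and 24.4 CPM (-1.80), Pds5b by 0.89 and the meiotic subunit Smc1b by 0.70 on the log2 scale. Stag3, the meiotic counterpart of Stag1, stood at 266, 250 and 250 CPM in members and at 262, 241 and 252 CPM in the comparison and did not pass. Rec8, the meiotic kleisin, was low in both classes (6.27, 4.34 and 6.47 against 2.84, 1.504 and 3.87 CPM, 1.05) and did not pass among members with at least 100 CPM of Pou5f2 (adjusted p = 0.181). Smc1a (1.45) no longer passed without PND35 replicate 1 (adjusted p = 0.113).

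The piRNA pathway protects germ cells from transposons and, in pachytene, cuts long precursor transcripts. Of 22 genes, 17 were lower, 3 higher and 2 not called (median -0.86). Mov10l1, the helicase that starts processing, fell from 292, 250 and 234 CPM to 68.9, 67.2 and 63.7 CPM (-2.03, SE 0.08), and Fkbp6 (-2.28), Asz1 (-1.93) and the low-level regulator Btbd18 (-3.95) fell as well. Tdrd7 (1.09), Tdrd6 (0.78) and Henmt1 (0.39), of which the first 2 belong to the chromatoid body of spermatids, were the 3 that rose, and the helicase gene Ddx25 did not pass (564, 575 and 542 against 580, 561 and 519 CPM).

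Among RNA-binding and translation genes, 18 of 31 were lower, 4 higher and 9 not called (median -0.47). Dazl, which binds mRNAs and promotes their translation, had the 7th largest fall of all expressed genes by the rule for names, from 329, 279 and 250 CPM to 19.0, 32.5 and 11.9 CPM (-3.94, SE 0.17). Cpeb1 (-3.07) and the initiation factor Eif4g1 (-2.22) were lower and the X-linked export factor Nxf2 (2.11) higher.

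Transcription regulators of meiosis and spermatids gave 15 higher, 7 lower and 9 not called of 31 (median 0.29). Ovol2, a zinc finger factor, stood beside Pou5f2 at the top, rising from 51.4, 61.0 and 80.4 CPM to 294, 307 and 335 CPM (2.22, SE 0.08). Rfx2, a factor of spermatid genes, was at 222, 168 and 211 against 154, 127 and 167 CPM (0.34). Ythdc2, an RNA helicase needed to hold the meiotic programme, fell from 68.0, 43.8 and 52.8 to 8.23, 8.49 and 9.83 CPM (-2.69).

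In the acrosome list 9 of 29 genes were higher, 3 lower and 17 not called (median 0.16), a share of higher genes near the 27.8% of all tested genes and a share called of 41.4% against 60.1%. Zpbp, a zona pellucida binding protein of the acrosome, rose from 128, 108 and 150 CPM to 300, 252 and 277 CPM (1.03, SE 0.07), and Zpbp2 (0.94), Actl9 (0.99) and Agfg1 (0.97) rose as well. Spaca1, an acrosomal membrane protein of spermatids, stood at 47.2, 38.1 and 51.7 against 38.2, 37.2 and 38.8 CPM and did not pass. The 8 round spermatid markers summed to 603, 666 and 1131 CPM in members and 979, 903 and 1368 CPM in the comparison.

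In the axoneme and flagellum list 27 of 66 were higher, 10 lower and 29 not called (median 0.13). The tektins Tekt4 (85.5, 91.7 and 92.4 to 319, 309 and 329 CPM, 1.75) and Tekt3 (1.64), filament proteins of the axoneme, had the largest rises, while the transport gene Ift88 fell (-1.56) and Meig1 was equally abundant at 1315, 1418 and 1294 against 1271, 1301 and 1217 CPM. Rsph4a of the radial spoke (-2.78) rests on under 1 CPM in members. Histone variants and protamines gave 17 of 26 lower, 0 higher and 9 not called (median -0.56), with Hist1h2ba (-3.18), the linker histone gene H1f0 (-2.56), Rnf8, a ligase of histone ubiquitination (-1.66), and H3f3b (-1.51) the largest falls. Prm1 (-0.67) and Tnp1 (-0.51), genes of late spermatids, are in this count as shares of a cell's UMIs. Their median UMIs per cell were higher in members. For Tnp1 these were 28, 35 and 55.5 against 23, 20 and 45. For Prm2 they were 25, 73 and 95 against 28, 43 and 81, lower in PND35 replicate 1.

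The energy list was mixed, and testis and general forms were found on both sides. Pgk2, the testis phosphoglycerate kinase, rose from 97.0, 105 and 117 CPM to 350, 362 and 350 CPM (1.66, SE 0.07), and the phosphofructokinase gene Pfkp from 73.9, 96.3 and 96.9 to 297, 299 and 285 CPM (1.65). Gapdh fell from 45.8, 36.9 and 50.2 to 13.97, 13.8 and 22.9 CPM and the somatic cytochrome c Cycs by 2.25 on the log2 scale. Ldhc, the testis lactate dehydrogenase, stood at 1506, 1494 and 1426 against 1434, 1336 and 1331 CPM without passing. Hk1, a hexokinase of general use, rose (1.26), and the testis forms Cyct of cytochrome c (-0.80) and Slc25a31 of the ADP/ATP carrier (-0.81) fell. In all 8 of 30 were higher, a share near the 27.8% of all tested genes, 12 lower and 10 not called (median -0.17). With members of at least 500 CPM of Ccna1, 14 of 29 were higher and 10 lower (median 0.06), so the list has no single direction. Over all 15150 genes tested at that limit 4504 were higher and 5005 lower.

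Of 26 chaperones 16 were lower, 5 higher and 5 not called (median -0.28). With members of at least 500 CPM of Ccna1 the direction of this list turned, to 13 higher, 8 lower and 5 not called (median 0.25). Over all 15150 genes tested at that limit 4504 were higher and 5005 lower (median -0.10). The mitochondrial pair Hspd1 (-2.54) and Hspe1 (-2.08) and the constitutive Hspa8 (-2.07) fell most and Bag5 rose (1.02). Hspa2, the chaperone that assembles Cdk1 with cyclin B in spermatocytes, was at 615, 575 and 634 against 960, 841 and 826 CPM (-0.61). Of 28 ubiquitin and proteasome genes 18 were lower, 5 higher and 5 not called (median -0.38), among them the testis proteasome subunit Psma8 (-1.12), its somatic form Psma7 (-1.32) and Cul4a (-1.45). Usp26 (1.54) was near 2 CPM and no longer passed without adult replicate 2 (adjusted p = 0.0509).

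**Figure D2:**
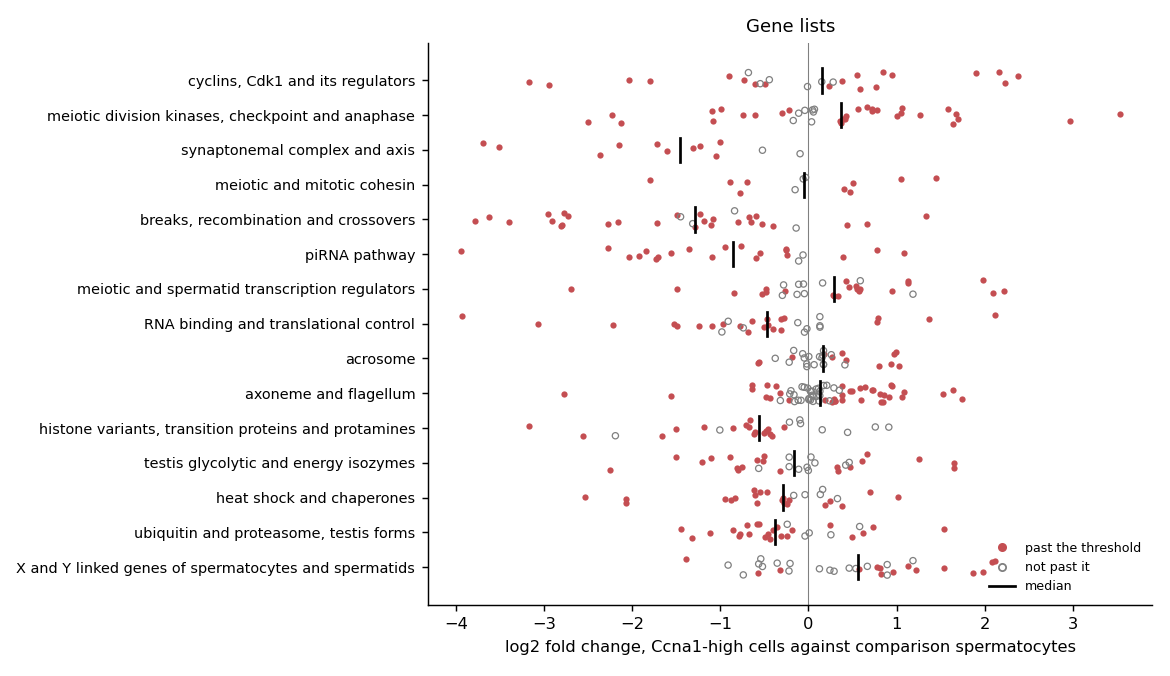
Log2 fold changes (x axis) of the tested genes of 15 lists (rows) in Ccna1-high cells against comparison spermatocytes, with filled points past the threshold, open points not past it and bars at the medians. The medians run from -1.46 in the synaptonemal complex list to 0.56 in the list of X and Y linked genes.

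The sex chromosomes are silenced in pachytene. Their genes took 0.222%, 0.225% and 0.282% of the UMIs of members and 0.206%, 0.212% and 0.252% of those of comparison spermatocytes, higher by 0.019 percentage points (SD 0.009, n = 3 pools, exact permutation p = 0.25, the smallest possible). Without the members under 100 CPM of Pou5f2 the share was 0.178%, 0.194% and 0.235%, below the comparison in each pool. At PND30 it was 0.253% in Ccna1-high cells against 0.186% in replicate 1 and 0.197% against 0.208% in replicate 2, so the direction differed between the replicates. The median share over cells was 0.150%, 0.166% and 0.235% in members against 0.165%, 0.160% and 0.202%, lower in PND35 replicate 1 and higher in the other pools. In Acrv1-positive cells the share was 1.86%, 1.95% and 1.89%. Of 32 X and Y linked genes tested, 12 were higher in members, 3 lower and 17 not called (median 0.56). With only members of at least 100 CPM of Pou5f2, 5224 of all 17973 tested genes were higher and 5292 lower. In that fit 5 of the 32 X and Y linked genes were higher and 1 lower. The named ones were low: Nxf2 (10.9, 12.9 and 13.6 against 3.23, 2.61 and 2.38 CPM), Usp9y (2.51, 2.35 and 2.87 against 0.979, 0.227 and 0.728 CPM) and Zfy2 (1.72, 2.46 and 2.50 against 0.979, 0.454 and 0.298 CPM). Tex16, at 0.430 to 1.36 CPM in members, did not pass without PND35 replicate 2 (adjusted p = 0.177) or without adult replicate 2 (0.191).

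The genes with the largest changes belong to no single list. Among the 10 largest rises at a mean of at least 5 log2 CPM were those of Agtr1a, Jam2, D6Ertd474e, Tmcc3, Pank1, Rgcc, Slc25a54, Rasef and Itpk1. Agtr1a, an angiotensin receptor, rose from 6.02, 3.77 and 4.24 CPM to 72.9, 63.3 and 74.8 CPM, 14.5-fold (3.86, SE 0.15). Jam2, a junctional adhesion molecule, rose from 5.19, 4.26 and 4.07 to 73.1, 57.9 and 61.4 CPM, 13.4-fold. D6Ertd474e is a long noncoding RNA, Pank1 a kinase of coenzyme A synthesis, Slc25a54 a mitochondrial carrier and Itpk1 an inositol phosphate kinase. In Rgcc, a regulator of the cell cycle, the values were 8.81, 12.3 and 6.85 CPM in comparison spermatocytes and 117, 144 and 101 CPM in members.

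The 10 largest falls were those of Chd3os, Exosc7, Pex7, Tex19.1, Dzip3, Zfp820, Dazl, Ccdc61, Ccnb1ip1 and B3galnt1. Exosc7, a subunit of the RNA exosome, fell 22.1-fold, from 130, 156 and 125 CPM to 4.38, 11.1 and 5.43 CPM (-4.47, SE 0.16), and Pex7, a receptor for peroxisomal import, from 129, 119 and 99.9 to 5.42, 8.56 and 4.76 CPM (-4.33). Tex19.1, which restrains transposons in germ cells, fell from 70.1, 78.9 and 56.8 to 2.43, 8.63 and 2.87 CPM (-4.15). Chd3os, an antisense gene (-4.68), cannot be told from its sense partner where counting did not use strand. In Exosc7, Pex7 and Tex19.1 the sums over members of all pools lay below the sums over comparison cells of every pool. These genes were picked for a large fall in the same direction in every pool, so the choice itself favours such a separation. Sums per pool do not show whether single cells of the classes overlapped.

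**Figure D3:**
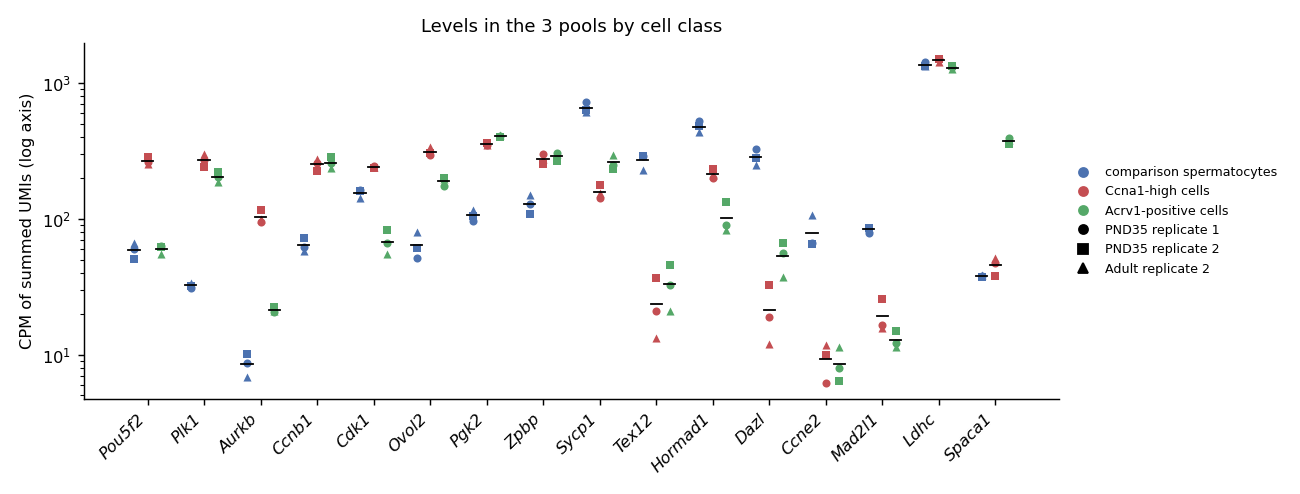
CPM of summed UMIs (log y axis) of 16 genes in comparison spermatocytes, Ccna1-high cells and Acrv1-positive cells, with 1 point for each of 3 pools and a bar at the mean. Pou5f2 and Aurkb are high only in the middle class of the 3 shown, Sycp1 and Dazl are highest in comparison spermatocytes and Spaca1 in Acrv1-positive cells.

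Members varied along Ccna1 itself. In cells with 100 to 300 CPM of Ccna1 and little Acrv1, which are no members, Pou5f2 was at 258, 251 and 246 CPM and Sycp1 at 284, 288 and 297 CPM, while Ccnb1 was at 70.6, 67.7 and 58.4 CPM, near the comparison level. At 300 to 500 CPM (100, 98 and 95 cells) Ccnb1 was at 237, 208 and 243 CPM and Plk1 at 256, 231 and 274 CPM. At 500 to 800 CPM (23, 17 and 36 cells) Ccnb1 reached 432, 415 and 454 CPM and Plk1 384, 345 and 421 CPM.

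In the bin of 500 to 800 CPM Pou5f2 was lower than in the bin below it, at 185, 226 and 132 CPM against 270, 293 and 275 CPM, and the median UMIs per cell went from 556913, 547352 and 568052 to 288115, 299535 and 266132. Ccnb2 was at 548, 530 and 639 CPM in these cells and at 380, 379 and 389 CPM in those below 500 CPM. These bins were set after the values were seen, and no test was run on them.

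A smaller set of members had little Pou5f2. Under 100 CPM were 18 of 123, 11 of 115 and 33 of 134 members, and the 1 member of adult replicate 1 (63 in all). Their sex chromosome share was 0.522%, 0.601% and 0.494%, against 0.178%, 0.194% and 0.235% in the other members. Spaca1 stood at 134, 185 and 113 CPM in them and at 34.8, 26.1 and 38.3 CPM in the rest, and Ccnb1 at 428, 464 and 441 against 232, 206 and 240 CPM. Acrv1 was at 52.4, 58.5 and 60.9 against 36.2, 22.4 and 48.6 CPM and Pgk2 at 397, 436 and 405 against 343, 356 and 337 CPM. With them left out, 10516 genes differed from comparison spermatocytes instead of 10992.

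Members were next set against cells with at least 100 CPM of Acrv1, which number 268. Since 110 of these also had at least 300 CPM of Ccna1, and only 31 under 100 CPM, Acrv1 alone defined them, a choice made after seeing the data. Of 20355 genes tested 14304 differed (70.3%), 7068 higher in members (34.7%) and 7236 lower (35.5%). The classes are split by Acrv1, itself an acrosome gene. A gene that goes with Acrv1 over cells had to differ, so the calls describe the classes.

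Division genes were higher on the side of members here too. Of 37 division kinases and checkpoint genes 32 were higher, 3 lower and 2 not called (median 0.92), while the median over all genes was 0.02. Cdk1 was at 66.1, 82.3 and 55.2 CPM in Acrv1-positive cells (log2 difference 1.98, SE 0.09), Aurkb at 20.7, 22.5 and 20.9 CPM (2.40) and Pou5f2 at 63.0, 61.5 and 54.8 CPM (2.29). Of 22 piRNA genes 17 were higher in members, 2 lower and 3 not called (median 0.61). Ccnb1 did not pass, at 256, 283 and 236 CPM in Acrv1-positive cells (0.10, SE 0.07).

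Spermatid genes lay on the other side, with 19 of 30 acrosome genes lower in members, 8 higher and 3 not called (median -2.95). Spaca1 was at 390, 357 and 379 CPM in Acrv1-positive cells (-2.92, SE 0.07). Of 36 X and Y linked genes 31 were lower in members, 0 higher and 5 not called (median -2.68). Zpbp (0.06, SE 0.07) and Jam2 (0.18, SE 0.11) did not pass, and their values overlapped between the classes. Pgk2 (-0.07, SE 0.07) did not pass either, at 406, 397 and 415 CPM in Acrv1-positive cells.

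By the rule for names the largest differences upward were Gem, a small GTPase (67.0, 73.6 and 68.4 against 13.1, 11.3 and 7.78 CPM), the cytolinker gene Eppk1, the helicase gene Ddx51 and the spindle gene Fam83d. Downward they were Akap14, an anchor of protein kinase A (1.19, 1.11 and 2.61 against 63.9, 63.8 and 94.1 CPM), the Y-linked Sly, Fam81b and Catsper1, a sperm calcium channel. The last 4 genes were at 1.11 to 9.38 CPM in members.

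PND30 animals, which the rule does not name, give values from other mice and by DNA content. Cells of PND30 were sorted by Hoechst stain into gates written 1N, 2N and 4N in the cell names, and in replicate 2 some carry the gate None. The same limits found 127 of 572 and 113 of 469 cells. In the 4N gate 37.7% of cells were Ccna1-high in replicate 1 (72 of 191, exact 95% interval 30.8 to 44.98%) and 52.6% in replicate 2 (50 of 95, 42.1 to 63.0%). In the 2N gate it was 18.5% (35 of 189, 13.3 to 24.8%) and 22.7% (20 of 88, 14.5 to 32.9%).

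The 1N gate, that of haploid DNA content, held 10.4% (20 of 192, 6.48 to 15.6%) and 7.45% (7 of 94, 3.05 to 14.7%). The intervals cover counting error only. In both replicates the 4N interval lay above the 1N interval. The Acrv1 limit had taken out 163 of 192 and 80 of 94 cells of the 1N gate, and 37 of 191 and 7 of 95 of 4N. These shares thus follow the Acrv1 limit as well as Ccna1 and are no independent check by DNA content. With a limit of 500 CPM of Ccna1 the shares of replicate 1 were 9.38% (1N), 10.6% (2N) and 10.5% (4N), so the difference between gates there depends on the limit. The label late spermatocyte is thus not borne out by DNA content for every cell, and the cells are called Ccna1-high cells here.

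Ccna1-high cells of the gates differed in other genes too. Pou5f2 was at 328 and 295 CPM in those of 4N, 159 and 226 CPM in those of 2N and 24.6 and 184 CPM in those of 1N. Members with under 100 CPM of it were 2 of 72 and 4 of 50 in 4N, 19 of 35 and 6 of 20 in 2N, and 20 of 20 and 5 of 7 in 1N. The sex chromosome share was 0.167% and 0.144% in 4N, 0.360% and 0.259% in 2N and 0.577% and 0.387% in 1N. The order of the gates was the same in both replicates for these 3 measures, and no test was run over gates.

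**Figure D4:**
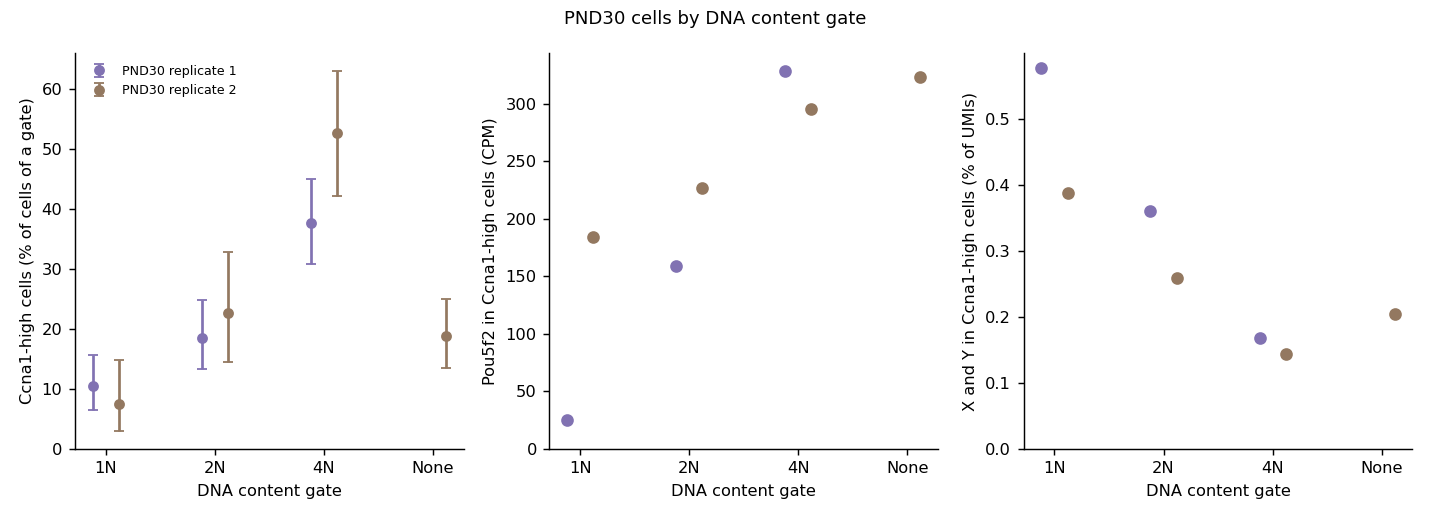
Share of Ccna1-high cells among the cells of each DNA content gate at PND30 (left, bars are exact 95% binomial intervals), and the level of Pou5f2 (middle, CPM) and the UMI share of X and Y genes (right, %) in the Ccna1-high cells of each gate, by replicate. Among the 1N, 2N and 4N gates the share and Pou5f2 are highest at 4N and the X and Y share is highest at 1N, and the gate None was used in replicate 2 only.

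The comparison of classes was repeated on the 2 PND30 pools, which share no sample with the later ones. Of 16778 genes tested 8241 differed (49.1%), 3931 higher and 4310 lower in Ccna1-high cells. Of the 10617 genes called at PND35 and in adults that were tested here, 10226 changed the same way (96.3%), 7722 were also called the same way (72.7%) and 3 were called the opposite way. Over all 16540 genes tested in both, 85.1% had the same sign, 49.2% were called at PND30 with the same sign and 61 were called with the opposite one. Among the 6040 of them that had moved at least 2-fold, 4892 (81.0%) were called the same way and 0 the opposite way. The cells of both ages were chosen by the same limits, so genes that go with Ccna1 had to move alike. Of 37 division kinases and checkpoint genes 21 were higher, 7 lower and 9 not called (median 0.34), and of 12 synaptonemal complex genes 10 were lower, 0 higher and 2 not called (median -0.91). In the 4N gate alone 19 of 36 division genes were higher and 4 lower, and 9 of 12 synaptonemal genes were lower and 0 higher. Over all 14262 genes tested in that gate 3073 were higher and 3068 lower.

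Plk1 was at 21.7 and 23.5 CPM in comparison spermatocytes of PND30 and at 270 and 239 CPM in Ccna1-high cells (3.48, SE 0.13), Pou5f2 at 103 and 58.4 against 258 and 287 CPM (1.82, SE 0.11) and Sycp1 at 469 and 601 against 162 and 129 CPM (-1.87, SE 0.09). Among the genes the rule for names gave upward were Jam2, Rgcc, Cyb5r2, Slc25a2, Itpk1, D6Ertd474e, Hapln2, Asb4 and Neil3. Cyb5r2, a cytochrome b5 reductase, went from 3.06 and 4.76 to 77.0 and 74.8 CPM. Downward it gave Exosc7, Chd3os, Pex7, Ccdc61, Mia2, Dazl, Slc9a3r2, Ddx10, Fbxo15 and Ccne2, among which Ccne2 went from 86.3 and 94.1 to 7.81 and 9.81 CPM.

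**Figure D5:**
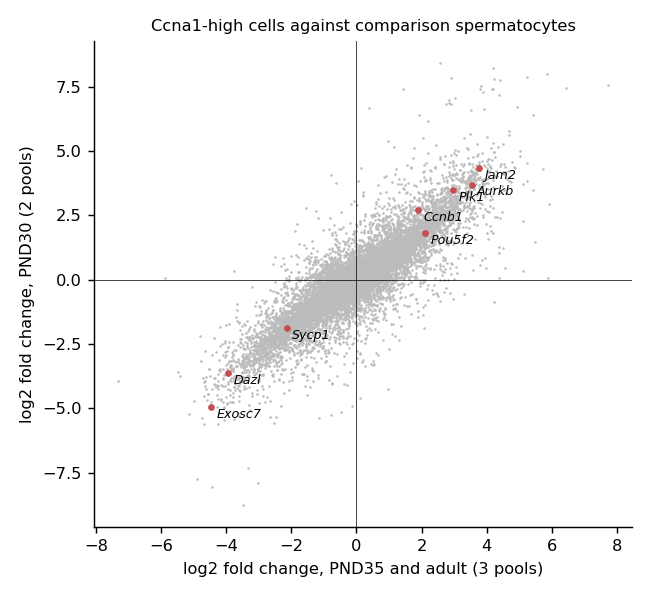
Log2 fold change of Ccna1-high cells against comparison spermatocytes at PND35 and in adults (x axis, 3 pools) and at PND30 (y axis, 2 pools), with each point 1 gene tested in both. Plk1, Aurkb, Jam2, Ccnb1 and Pou5f2 lie upper right, and Sycp1, Dazl and Exosc7 lower left.

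At PND14, when the first wave of germ cells has not reached the end of prophase, 0 of 852 cells met the rule. An approximate 95% upper limit of the share was 0.352%, which covers counting error only and takes the PND14 pools together. Comparison spermatocytes were 11 of 473 cells in PND14 replicate 1 and 115 of 379 in PND14 replicate 2. The highest level of Ccna1 there was 187 CPM.

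Adult and PND35 members were compared last, as 1 adult pool against 2 PND35 pools, so that no spread among adults was measured. Of 20250 genes tested 342 differed (1.69%), 204 higher and 138 lower in the adult. In comparison spermatocytes of the same pools 260 of 18308 differed (1.42%). The count of 342 fell to 139 with Ccna1 at least 200 CPM and to 58 without a filter on low counts. In 1 gene of 18281 the difference between the classes was not the same in the adult pool as in the PND35 pools (0.00547%, 1035 at an unadjusted p under 0.05).

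The calls below are differences of 1 adult pool from 2 PND35 pools, and age and animal cannot be told apart in them. They are mostly not particular to members. In comparison spermatocytes of the same pools, 312 of the 324 such genes also tested there changed the same way. Of 27 histone and protamine genes 5 were higher in adult members and 1 lower, of 66 axoneme genes 3 were higher and 1 lower, of 30 energy genes 2 were higher and of 31 break and crossover genes 1 was lower. Prm1 (142 and 176 CPM at PND35, 305 CPM in the adult, 0.91, SE 0.11) and Tnp1 (90.3 and 79.7 against 161 CPM, 0.90) are among the 5. The sum of round spermatid markers given above was also highest in the adult in both classes, and its part in these values was not tested. H2afx, the 1 lower gene of both the histone and the break list, was at 188 and 200 against 141 CPM.

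By the rule for names the higher genes were Tex24, Nmnat3, Rex1bd and Lzts1 and the lower ones Lrrc25, Tmem59l, Aaas and Cst3. Nmnat3, an enzyme of NAD synthesis, was at 79.1 and 57.5 CPM at PND35 and 235 CPM in the adult (1.75, SE 0.15). The PND35 replicates themselves differed widely in Rex1bd (14.3 and 67.3 against 132 CPM), Lzts1 (11.1 and 35.2 against 71.4 CPM) and Tex24 (31.8 and 4.39 against 75.1 CPM), which DESeq2 did not call. Lrrc25, a leucine-rich repeat protein, was at 74.7 and 41.3 CPM at PND35 and 0.240 CPM in the adult, and it was as low in the adult's comparison spermatocytes (0.132 CPM) and Acrv1-positive cells (0.600 CPM).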

How the data were processed

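The authors counted UMIs per gene from a modified STRT-seq and deposited the raw counts of 31053 genes in 13032 cells, with a table of cells. The submitters' processing notes name CASAVA 1.8, UMI-tools, STAR, featureCounts, Subread and mm10. Time-point, genotype, replicate and gate were read from the cell names, since the labels of the 147 libraries give library codes only. Cells were picked singly, and no doublet caller was run. Whether counting used strand is not given in the sources used here, and some named genes overlap another gene (Tex12 with Il18, Syce2 with Gcdh, Pou5f2 with Fam172a).

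UMIs were summed per pool and class over at least 10 cells. Sums were tested with edgeR 4.0.16 (quasi-likelihood test, TMM, filterByExpr, R 4.3.3) with the pool as block and Benjamini-Hochberg adjustment at 0.05, since both classes of a pool come from the same replicate. The design had foreseen 4 pools, and adult replicate 1 dropped out for lack of members. Members held 181111565 UMIs in all. Fits were tested on simulated data. Alternatives were DESeq2 1.42.0, RLE size factors, no filter, no block, other limits, libraries as replicates, cells thinned to 50000 UMIs, and each pool left out. The members and gene lists were chosen with earlier results of these data known.

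Named were, per fit, the 10 genes (4 for age and for Acrv1-positive cells) with the largest rise and fall that passed, averaged 5 or more on the log2 CPM scale and moved 1 way in every pool, with predicted genes passed over, and in each list up to 4 called members with the largest change and up to 2 that did not pass. The rule and marker genes were named too. A gene that the rule gave is not reported here. Other genes named (for example Ccnb1, Cdk1, Aurkc, Incenp, Hspa2, Smc1b, Tdrd6, Tdrd7, Henmt1, Mei1, H2afx, Rfx2, Hk1, Cyct, Slc25a31 and Prm1) were added after their values were seen. GENCODE M21 gave chromosomes for 30416 of 31053 genes.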

Additional observations from a re-analysis of the deposited data

Results flagged for a closer look

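The share of Ccna1-high cells in adult replicate 1 was 0.265%, against 29.98 to 34.6% in the 3 other pools. Its gap to the next pool was 0.864 of the range of the 4 shares, above the critical value of 0.829 for 4 values. Of 13 groups examined in this way, chance alone sets apart about 1 in 20. The comparison spermatocytes of adult replicate 1 carried the Leydig and Sertoli markers given above, and the pool held only 5 cells with at least 100 CPM of Acrv1. What lies behind the low share was not tested.

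In Gm9833, a predicted gene, the difference between the classes differed between the adult pool and the PND35 pools by 3.78 on the log2 scale (SE 0.29, adjusted p = 0.00011, edgeR quasi-likelihood test of the interaction). It was at 5.39 and 4.51 CPM in PND35 members and 110 CPM in adult members, and at 17.4, 20.1 and 33.6 CPM in comparison spermatocytes. The adult value rests on 1 pool, so age and animal cannot be told apart.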

How the results depend on the processing

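Counts of genes that differed between members and comparison spermatocytes were 9102 to 11254 over the alternatives that kept all 3 pools, against 10992, and 10024 to 10293 with 1 pool left out. Of these calls 46.3% were higher as reported and 46.0 to 52.4% over the alternatives. Against Acrv1-positive cells the counts were 10337 to 14699 (39.4% of calls higher with Ccna1 at least 500 CPM, 49.4% as reported), and 12262 to 14077 with 1 pool left out, against 14304. Without the replicate block the counts were 9102, 12857 and 6333 (PND30) against 10992, 14304 and 8241. For adult against PND35 members the count of 342 became 139 with Ccna1 at least 200 CPM, 58 without a filter on low counts and 230 with DESeq2, the share higher went from 59.6% to 73.3% with Ccna1 at least 500 CPM and 76.3% with thinned cells, and no pool could be left out, since no residual degrees of freedom remain. For shares of a PND30 gate, Ccna1 at least 200 CPM gave 46.6% for 4N of replicate 1 in place of 37.7%, and Ccna1 at least 500 CPM gave 10.6% (2N) and 10.5% (4N) in replicate 1 and 7.95% (2N), 17.9% (4N) and 7.29% (None) in replicate 2. In the 1N gate that last limit gave 9.38% in replicate 1 and 6.38% in replicate 2, so the gates of replicate 1 lay close together.

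Among named genes Hspa2, lower in the report, had a log2 difference of 0.049 (adjusted p = 0.447, edgeR) with Ccna1 at least 500 CPM. Ccnb2 (0.75), Ddx25 (0.60) and Syce1 (0.56), not called in the report, passed as higher there, and Ccnb2 also passed with libraries as replicates (0.10) and with thinned cells (0.18). The cause was not tested. With Acrv1-positive cells limited to Ccna1 under 100 CPM no fit was possible, since 1 pool alone held 10 of them. Adult replicate 1 entered no fit and PND30 has 2 pools, so leaving out replicates was not run there. The median log2 difference from comparison spermatocytes was 0.13 with comparison Ccna1 under 50 CPM, against -0.07. The depth allows low genes to be called, but values under 1 CPM rest on few molecules a cell.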
